A study of Mus musculus with 6 samples.

Results

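The 10 genes described here belong to the oxidative stress response driven by the transcription factor NRF2: Nfe2l2, which encodes NRF2 itself, and Slc7a11, Gclc, Gclm, Gpx2, Txnrd1, Srxn1, Nqo1, Gsta4 and Hmox1, genes known from other work as NRF2 targets. They were chosen by name and found through their NCBI gene numbers, 10 of the 27179 genes in the count table, and all 10 passed the filter on low counts that left 17377 genes for testing. The RNA-seq libraries were made from the skin of female BALB/c mice, 6 to 8 weeks old, in the bleomycin model of scleroderma, in which this DNA-damaging drug gives inflamed and fibrotic skin. The groups were bleomycin with EHP-101 (1 library), bleomycin with ajulemic acid (3 libraries), bleomycin alone (1 library) and control (1 library), so 5 of the 6 libraries came from bleomycin-exposed mice. EHP-101 is an oral formulation of VCE-004.8, an aminoquinone made from cannabidiol, and ajulemic acid is a synthetic cannabinoid acid. The labels give neither doses, routes, times, the vehicle of the controls, nor the number of mice behind a library. The p-values rest on the spread among the 3 ajulemic acid libraries, assumed to hold for the other groups, and that spread may be technical.

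NRF2 is held in the cytoplasm by KEAP1, which marks it for degradation. Electrophiles and oxidants modify KEAP1, and NRF2 then enters the nucleus, pairs with small MAF proteins and binds antioxidant response elements, the sites that the repressor BACH1 also occupies. Its targets import cystine, make and use glutathione, reduce thioredoxin and peroxiredoxins, and detoxify quinones, lipid aldehydes and heme; in skin the pathway is best known from keratinocytes.

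Library totals were 15483701 counts with EHP-101, 14291592, 18639641 and 19837682 in replicates 1, 2 and 3 with ajulemic acid, 15542255 with bleomycin alone and 15728362 in control. The 14 keratinocyte and 11 fibroblast markers that check the label of skin were all detected in every library. Transcripts of hepatocytes, a cell type that skin lacks, were also present: the 20 markers of that list summed to 839 CPM (library sizes scaled by TMM) with EHP-101, 76.3, 141 and 33.3 CPM in the 3 ajulemic acid libraries, 946 CPM with bleomycin alone and 1390 CPM in control, and Alb alone reached 678 CPM in control. The 20 hair-shaft genes summed to 11914 CPM with EHP-101, 12978, 664 and 30218 CPM in ajulemic acid replicates 1, 2 and 3, 1177 CPM with bleomycin alone and 14525 CPM in control. Ajulemic acid replicate 2 and the bleomycin library therefore stood apart from the other 4 in hair transcripts, and hepatocyte transcripts separated the ajulemic acid libraries from the other 3 groups. In whole skin, fewer cells of a type and less RNA per cell cannot be told apart.

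Sequence around the start sites was taken for the members from RefSeq (GRCm38.p6, the mm10 assembly), from 250 bases before to 50 bases after each start, and 7 of the 10 genes had entries, with 9 promoters in all; Hmox1, Gclc and Gsta4 had none. The core of the antioxidant response element, TGACNNNGC on either strand, was present in 4 of the 9 promoters (44.4%), against 12.4% of all 32851 promoters of this length. These 4 matches are shown because NRF2 is known to act through this element, and binding at them was not measured. They lie in Nfe2l2 (240 bases before the start), Srxn1 (28 bases after it), Gclm (134 bases before it) and 1 of the Txnrd1 promoters (92 bases before it). Distances are from the starts of the RefSeq promoter entries. The Srxn1 match lies before the gene start used for counting, chr2:152105730. Each match is given 5′ to 3′ on the strand of the gene with the core in capitals. The core reads forward in Nfe2l2 and in reverse complement in Srxn1, Gclm and Txnrd1.
Nfe2l2, chr2:75704885-75704913, minus strand: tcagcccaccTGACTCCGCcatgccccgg
Srxn1, chr2:152105542-152105570, plus strand: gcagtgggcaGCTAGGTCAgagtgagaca
Gclm, chr3:122245413-122245441, plus strand: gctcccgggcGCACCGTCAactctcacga
Txnrd1, chr10:82859104-82859132, plus strand: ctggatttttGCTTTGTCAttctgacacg

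The related AP-1 motif TGACTCA was found in 1 of the 9 promoters, that of Srxn1, against 5.20% of all promoters, and no member promoter held a core that overlapped it as TGACTCAGC (0.454% of all promoters). In Srxn1 a reverse-strand AP-1 match lies within TGAGTCAGC. This stretch differs in 1 base from TGACTCAGC and was matched by neither that pattern nor TGACNNNGC. A further motif, TGATGNAA, the core of the element bound by ATF4 and C/EBP factors, was searched after the Slc7a11 sequence had been seen. It was present in 1 of the 9 member promoters, that of Slc7a11, and in 3.97% of all promoters. The Gclm and Slc7a11 sequences are printed over the 250 bases before the start because bleomycin alone and ajulemic acid replicate 2 were the 2 lowest libraries for both transcripts while their promoters held different motifs; over all 6 libraries the transcripts were not close to each other (root mean square difference in centred log2 CPM 0.641). Capitals mark the match to TGACNNNGC in Gclm. In Slc7a11 they mark the 2 matches to TGATGNAA, 66 and 47 bases before the start and on opposite strands.
Gclm, chr3:122245307-122245556, plus strand: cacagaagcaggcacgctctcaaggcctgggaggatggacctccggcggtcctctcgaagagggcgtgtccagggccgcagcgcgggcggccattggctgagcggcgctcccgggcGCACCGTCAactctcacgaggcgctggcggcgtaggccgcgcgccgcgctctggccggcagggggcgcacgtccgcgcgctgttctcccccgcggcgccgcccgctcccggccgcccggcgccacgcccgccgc
Slc7a11, chr3:50443614-50443863, minus strand: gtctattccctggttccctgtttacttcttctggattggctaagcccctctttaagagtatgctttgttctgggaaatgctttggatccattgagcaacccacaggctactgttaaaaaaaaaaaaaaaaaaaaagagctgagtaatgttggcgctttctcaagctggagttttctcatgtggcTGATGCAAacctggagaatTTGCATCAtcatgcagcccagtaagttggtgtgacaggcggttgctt

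None of the 10 genes passed the test in any of the 6 comparisons among the 4 groups (edgeR's quasi-likelihood test, Benjamini-Hochberg adjusted p under 0.05). Of all 17377 genes, 0.0% passed in bleomycin against control, EHP-101 against bleomycin, ajulemic acid against bleomycin, EHP-101 against ajulemic acid, and EHP-101 against control. In ajulemic acid against control 0.0345% passed, which is 6 genes and no member. At an unadjusted p under 0.05, 817 genes were higher and 365 lower in bleomycin against control, 100 higher and 229 lower in EHP-101 against bleomycin, and 108 higher and 558 lower in ajulemic acid against bleomycin. DESeq2, run as an alternative, passed 165, 10 and 103 genes in these 3 comparisons, and limma-trend and DESeq2 passed no member in any of the 6. The spread was estimated from the 3 ajulemic acid libraries only, with 2 residual degrees of freedom, and 3 of the 4 groups had a single library. The values below are therefore given library by library, with fold changes and their 95% confidence intervals.

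**Figure D1:**
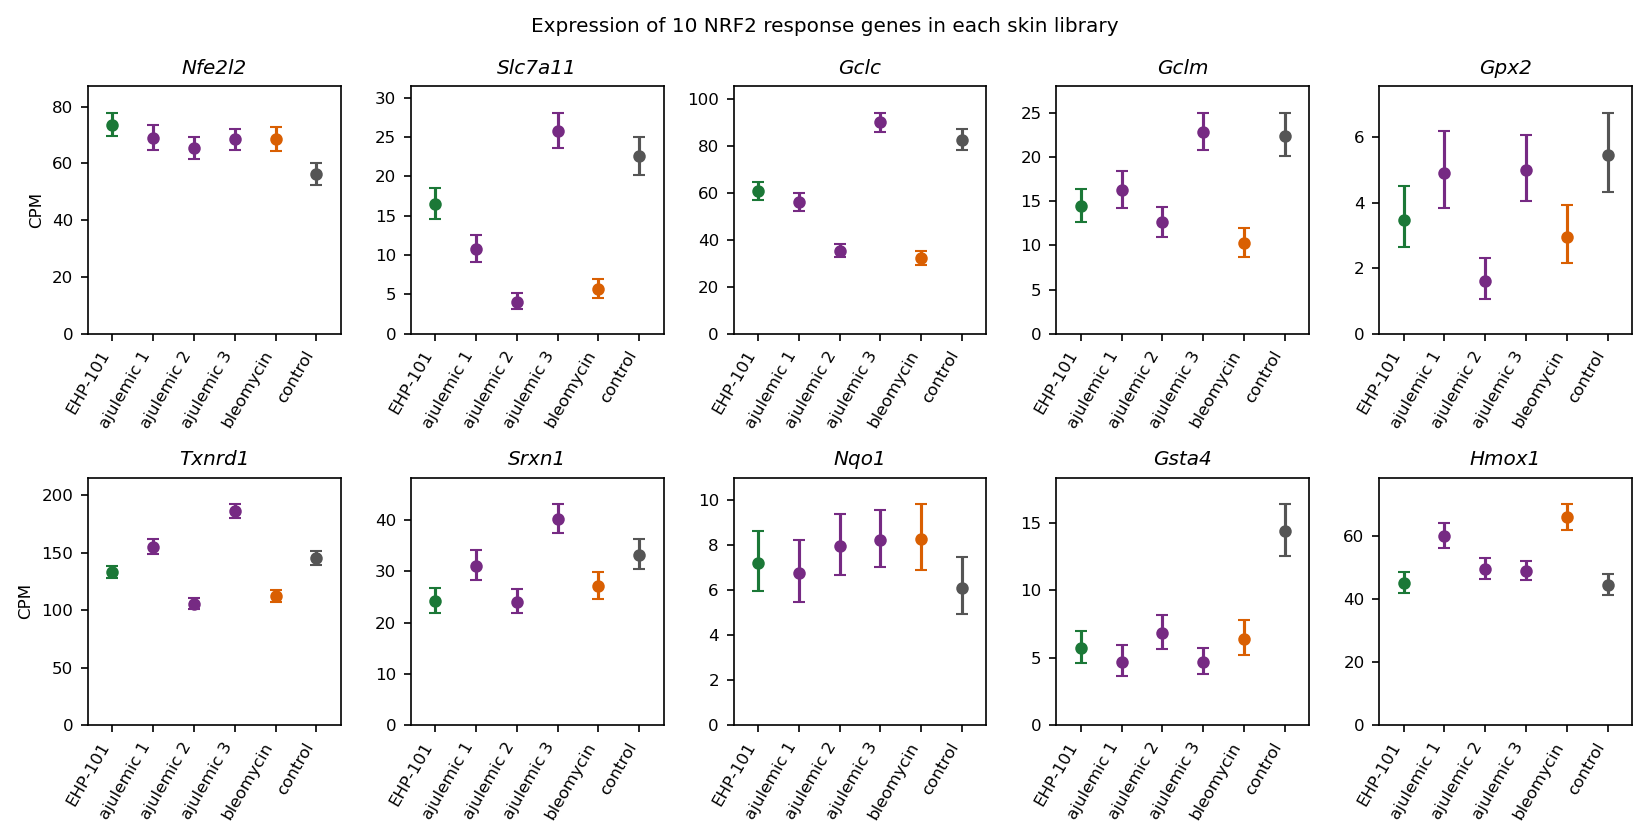
CPM of the 10 genes in each of the 6 libraries, 1 panel per gene on its own axis, with the exact 95% Poisson interval of each count as the bar. Gsta4 is highest in control (14.4 CPM), Hmox1 is highest with bleomycin alone (66.0 CPM), and Slc7a11 and Gclc are lowest with bleomycin alone and in ajulemic acid replicate 2.

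Per kilobase of exon, where levels of different genes can be compared, Txnrd1 had the highest median over the 6 libraries at 34.7 FPKM (26.3 to 46.4), followed by Hmox1 at 31.3 (28.2 to 41.9) and Nfe2l2 at 27.7 (22.7 to 29.8). The middle of the order held Gclc at 17.0 FPKM (9.38 to 26.3), Srxn1 at 11.3 (9.32 to 15.6) and Gclm at 10.5 (6.98 to 15.6). The lowest levels were those of Gsta4 at 6.34 FPKM (4.89 to 15.0), Nqo1 at 4.89 (3.94 to 5.33), Gpx2 at 3.93 (1.504 to 5.11) and Slc7a11 at 1.47 (0.44 to 2.79). The ranges over the 6 libraries overlapped for every pair of neighbours in this order. Within libraries, Gclm was above Gsta4 and Gpx2 above Slc7a11 in all 6, and each other pair of neighbours changed places in 1 or 2 libraries.

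Nfe2l2 (gene 18024, chr2:75675519-75704641, minus strand) varied least among the ajulemic acid libraries. It was at 73.7 CPM with EHP-101, 69.1, 65.3 and 68.4 CPM with ajulemic acid, 68.5 CPM with bleomycin alone and 56.1 CPM in control. Control was thus the lowest of the 6 libraries, and the 5 bleomycin-exposed libraries lay close to each other. The log2 fold change of bleomycin against control was 0.29 (95% CI -0.20 to 0.77; edgeR adjusted p = 0.780). Against bleomycin alone it was 0.11 with EHP-101 (-0.38 to 0.59) and -0.02 with ajulemic acid (-0.41 to 0.38). NRF2 is regulated mainly through the stability of its protein, which these libraries do not measure.

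The repressors of NRF2 were named whatever their values. Keap1 was at 35.1 CPM with EHP-101, 34.3 ± 2.59 CPM with ajulemic acid (SD, n = 3), 32.1 CPM with bleomycin alone and 29.8 CPM in control, a narrow range. Bach1, which competes with NRF2 at antioxidant response elements and represses Hmox1, was at 94.8 CPM with EHP-101, 102.4 ± 9.16 CPM with ajulemic acid (SD, n = 3), 119 CPM with bleomycin alone and 72.6 CPM in control. Control was the lowest library for Bach1, and the log2 fold change of bleomycin against control was 0.71 (SE 0.22; edgeR adjusted p = 0.690).

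Of the 10 genes, Slc7a11 had the widest ratio between its highest and lowest library. Slc7a11 (gene 26570, chr3:50364936-50443613, minus strand) encodes the cystine importer xCT. It was at 16.4 CPM with EHP-101 (Poisson 95% interval 14.5 to 18.5), 10.7, 4.07 and 25.8 CPM in ajulemic acid replicates 1, 2 and 3, 5.65 CPM with bleomycin alone (4.53 to 6.96) and 22.5 CPM in control (20.2 to 25.1). Ajulemic acid replicate 2 and the bleomycin library were the 2 lowest of the 6. Within the ajulemic acid group the highest library was 6.34 times the lowest, a wider ratio than the one between control and bleomycin alone. Bleomycin against control gave a log2 fold change of -1.995 (95% CI -5.56 to 1.57; edgeR adjusted p = 0.782). Against bleomycin alone it was 1.54 with EHP-101 (-1.99 to 5.07) and 1.26 with ajulemic acid (-1.80 to 4.32), where it became 0.38 without ajulemic acid replicate 3 and 1.71 without replicate 2.

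Gclc and Gclm encode the catalytic and the modifier subunit of glutamate-cysteine ligase, the rate-limiting enzyme of glutathione synthesis. Gclc (gene 14629, chr9:77754535-77794489, plus strand) was at 60.7 CPM with EHP-101, 56.2, 35.2 and 90.0 CPM with ajulemic acid, 32.1 CPM with bleomycin alone and 82.7 CPM in control. Gclm (gene 14630, chr3:122245592-122266648, plus strand) was at 14.5 CPM with EHP-101, 16.3, 12.6 and 22.9 CPM with ajulemic acid, 10.3 CPM with bleomycin alone and 22.5 CPM in control. Both subunits were lowest with bleomycin alone and next lowest in ajulemic acid replicate 2. In bleomycin against control the log2 fold change was -1.36 for Gclc (95% CI -3.08 to 0.35; edgeR adjusted p = 0.771) and -1.13 for Gclm (-2.33 to 0.07; adjusted p = 0.748). Against bleomycin alone, the log2 fold change of Gclc was 0.92 with EHP-101 (-0.78 to 2.62) and 0.91 with ajulemic acid (-0.54 to 2.37). That of Gclm was 0.49 with EHP-101 (-0.70 to 1.69) and 0.75 with ajulemic acid (-0.27 to 1.77). Gclc and Gclm were the only members for which all 3 ajulemic acid libraries lay above the bleomycin library, which held for 22.9% of all tested genes. Without ajulemic acid replicate 3 the log2 fold change of ajulemic acid against bleomycin was 0.51 for Gclc and 0.49 for Gclm.

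Gpx2 (gene 14776, chr12:76792335-76795554, minus strand), a glutathione peroxidase known from epithelia, had the lowest counts of the 10, from 28 to 100 per library. It was at 3.48 CPM with EHP-101, 4.91, 1.61 and 4.99 CPM with ajulemic acid, 2.95 CPM with bleomycin alone and 5.45 CPM in control. Control was the highest library, and ajulemic acid replicate 2 and bleomycin alone were the lowest, but these ranks are not clear of counting error. The Poisson 95% interval of control (4.34 to 6.76) overlapped those of ajulemic acid replicates 1 (3.84 to 6.18) and 3 (4.06 to 6.07). That of bleomycin alone (2.16 to 3.94) overlapped that of EHP-101 (2.63 to 4.51). Bleomycin against control gave a log2 fold change of -0.88 (SE 0.86), about the size of its standard error.

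Txnrd1 and Srxn1 serve the thioredoxin system. Txnrd1 (gene 50493, chr10:82833951-82897724, plus strand) encodes cytosolic thioredoxin reductase and was at 133 CPM with EHP-101, 155, 106 and 186 CPM with ajulemic acid, 112 CPM with bleomycin alone and 146 CPM in control. Srxn1 (gene 76650, chr2:152105730-152111353, plus strand) encodes sulfiredoxin, which reactivates overoxidised peroxiredoxins, and was at 24.2 CPM with EHP-101, 31.1, 24.1 and 40.2 CPM with ajulemic acid, 27.1 CPM with bleomycin alone and 33.2 CPM in control. Both were highest in ajulemic acid replicate 3 and lowest in replicate 2, so the ajulemic acid group spanned every other library. In bleomycin against control the log2 fold change was -0.38 (SE 0.42) for Txnrd1 and -0.29 (SE 0.39) for Srxn1.

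Slc7a11, Gclc, Gclm, Gpx2 and Txnrd1 shared the feature that bleomycin alone and ajulemic acid replicate 2 were the 2 lowest of the 6 libraries, which held for 18.1% of all tested genes. It also held for 20 of the 20 hair-shaft genes, 11 of the 12 melanocyte genes and 0 of the 20 hepatocyte genes. The median of the hair list, as log2 CPM centred on each gene's mean, was 0.81 with EHP-101, 1.05, -2.76 and 2.21 in ajulemic acid replicates 1, 2 and 3, -2.42 with bleomycin alone and 1.31 in control. The melanocyte list, which summed to 397.5 CPM with EHP-101, 421, 135 and 714 CPM with ajulemic acid, 164 CPM with bleomycin alone and 415 CPM in control, had the same 2 low libraries, and no marker of either list was at 0 in any library. The median of the 10 NRF2 genes on the centred scale was -0.05 with EHP-101, 0.05, -0.31 and 0.44 with ajulemic acid, -0.20 with bleomycin alone and 0.34 in control. Hair and melanocyte transcripts thus moved with these 5 genes, over a wider range, and their part in the result was not tested.

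**Figure D2:**
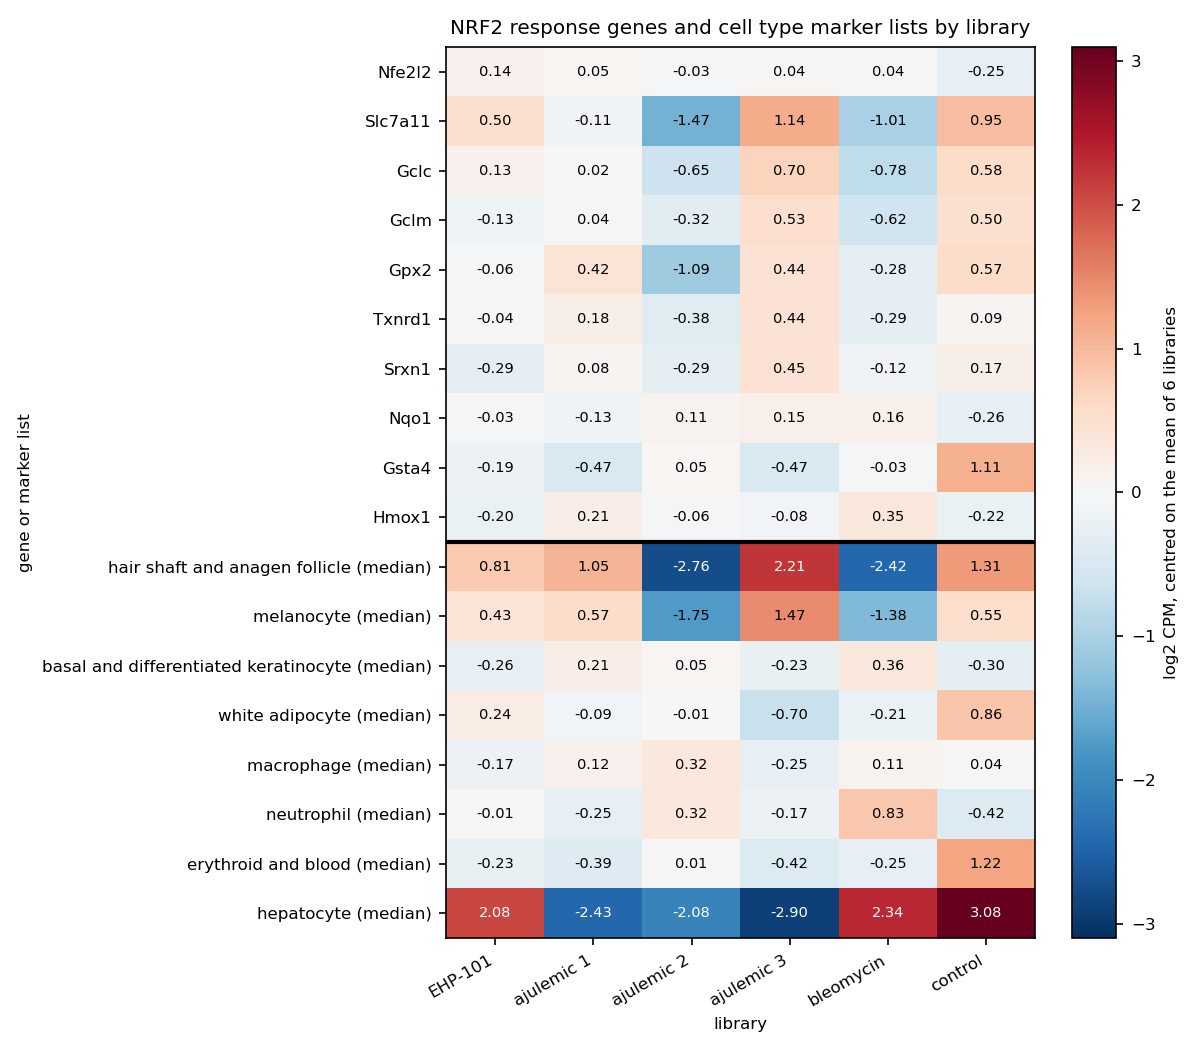
Heat map of log2 CPM centred on the mean of the 6 libraries (colour and printed value), with libraries in columns, the 10 NRF2 genes in the upper rows and the medians of marker lists in the lower rows. Slc7a11, at -1.47 in ajulemic acid replicate 2 and -1.01 with bleomycin alone, is low where the hair list is low (-2.76 and -2.42), and Gsta4 is highest in control (1.11), where the hepatocyte (3.08), erythroid (1.22) and adipocyte (0.86) lists are highest too.

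Nqo1 and Gsta4 act on electrophiles. Nqo1 (gene 18104, chr8:107388225-107403205, minus strand), the quinone reductase often used as a readout of NRF2 activity, was at 7.20 CPM with EHP-101, 6.75, 7.97 and 8.23 CPM with ajulemic acid, 8.28 CPM with bleomycin alone and 6.11 CPM in control. The 6 libraries covered a narrow range with control lowest and bleomycin alone highest. Bleomycin against control gave a log2 fold change of 0.44 (95% CI -0.39 to 1.26; edgeR adjusted p = 0.785). It was -0.20 with EHP-101 and -0.11 (SE 0.26) with ajulemic acid, each against bleomycin alone.

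Gsta4 (gene 14860, chr9:78191966-78209349, plus strand) encodes a glutathione transferase that clears 4-hydroxynonenal, an aldehyde made by lipid peroxidation. It was at 5.74 CPM with EHP-101 (Poisson 95% interval 4.64 to 7.02), 4.70, 6.82 and 4.69 CPM with ajulemic acid, 6.42 CPM with bleomycin alone (5.22 to 7.80) and 14.4 CPM in control (12.5 to 16.4). Control stood above all 5 bleomycin-exposed libraries, which lay close together. Control was highest in the same way for 17.9% of all tested genes, and for 2 members, Gsta4 and Gpx2. The log2 fold change of bleomycin against control was -1.16 (95% CI -2.22 to -0.11; unadjusted p = 0.036; edgeR adjusted p = 0.726). At an unadjusted p under 0.05, 2.1% of all tested genes were lower in that comparison. Gsta4 was the only member to reach it, and it did so there, in EHP-101 against control and in ajulemic acid against control. Its log2 fold change was -1.33 with EHP-101 (-2.38 to -0.27; edgeR adjusted p = 0.931) and -1.41 with ajulemic acid (-2.21 to -0.61; edgeR adjusted p = 0.301), both against control. The shares of all genes that were lower at an unadjusted p under 0.05 were 1.71% and 4.1% in these 2 comparisons. All 3 comparisons rest on the same control library.

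Several marker lists were also highest in that control library by their median: control was above all 5 other libraries for 13 of 14 adipocyte genes, 17 of 20 hepatocyte genes, 5 of 11 fibroblast genes, 4 of 6 tested intestinal epithelium genes and 2 of 3 tested erythroid genes. On the centred log2 CPM scale the control medians were 3.08 for hepatocyte, 1.22 for erythroid, 0.86 for adipocyte, 0.70 for fibroblast and 0.42 for intestinal epithelium genes. The adipocyte list summed to 2782 CPM with EHP-101, 2155, 2329 and 1512 CPM with ajulemic acid, 1964 CPM with bleomycin alone and 4106 CPM in control, with no marker at 0. The erythroid list summed to 15.3 CPM with EHP-101, 16.02, 15.0 and 21.3 CPM with ajulemic acid, 12.9 CPM with bleomycin alone and 51.2 CPM in control, and between 1 and 3 of its 6 genes in the table were at 0 in each library. The part of any of these lists in the Gsta4 values was not tested. Against bleomycin alone the log2 fold change of Gsta4 was -0.16 with EHP-101 (95% CI -1.22 to 0.90).

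Hmox1 (gene 15368, chr8:75093618-75100593, plus strand) encodes heme oxygenase 1, which opens the heme ring and is high in macrophages that take up red cells. It was at 45.0 CPM with EHP-101 (Poisson 95% interval 41.8 to 48.4), 59.9, 49.5 and 49.0 CPM with ajulemic acid, 66.0 CPM with bleomycin alone (62.0 to 70.1) and 44.5 CPM in control (41.2 to 48.0). Bleomycin alone was the highest library, EHP-101 and control were the lowest, and the 3 ajulemic acid libraries lay between them. The log2 fold change was 0.57 in bleomycin against control (95% CI -0.06 to 1.19; edgeR adjusted p = 0.755). Against bleomycin alone it was -0.55 with EHP-101 (-1.17 to 0.07) and -0.32 with ajulemic acid (-0.82 to 0.18). The macrophage list summed to 710 CPM with EHP-101, 898, 1098 and 718.5 CPM with ajulemic acid, 949 CPM with bleomycin alone and 810 CPM in control, and no marker was at 0. By this sum macrophage markers were highest in ajulemic acid replicate 2, where Hmox1 was not, and lowest with EHP-101. By the centred log2 CPM median ajulemic acid replicate 3 was lowest (-0.25), below EHP-101 (-0.17). The neutrophil list, with 1 of 10 genes at 0 in each library, summed to 53.9 CPM with EHP-101, 58.0, 77.2 and 41.2 CPM with ajulemic acid, 101 CPM with bleomycin alone and 40.9 CPM in control, and was highest with bleomycin alone as Hmox1 was. The 14 keratinocyte genes had a centred log2 CPM median of -0.26 with EHP-101 and 0.21, 0.05 and -0.23 with ajulemic acid. It was 0.36 with bleomycin alone and -0.30 in control, the highest and the lowest library, as for Hmox1. The part of macrophage, neutrophil and keratinocyte RNA in the Hmox1 values was not tested.

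Hmox1 and Nqo1 were the members for which all 3 ajulemic acid libraries lay below bleomycin alone, which held for 24.6% of all tested genes. With Nfe2l2 they were also the 3 members for which control was below all 5 bleomycin-exposed libraries, which held for 22.0% of all genes. All 3 ajulemic acid libraries were above control for these 3 members as well (26.9% of all genes) and below control for Gpx2 and Gsta4 (22.2% of all genes). Counts of 2 or 3 in 10 are near these shares. Control was also below all 5 bleomycin-exposed libraries for 10 of the 14 skeletal muscle genes. That list summed to 7215 CPM with EHP-101 and 4969, 7239 and 3609 CPM with ajulemic acid. It was at 7977 CPM with bleomycin alone and 2926 CPM in control. The part of muscle RNA in the values of Hmox1, Nqo1 and Nfe2l2 was not tested.

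**Figure D3:**
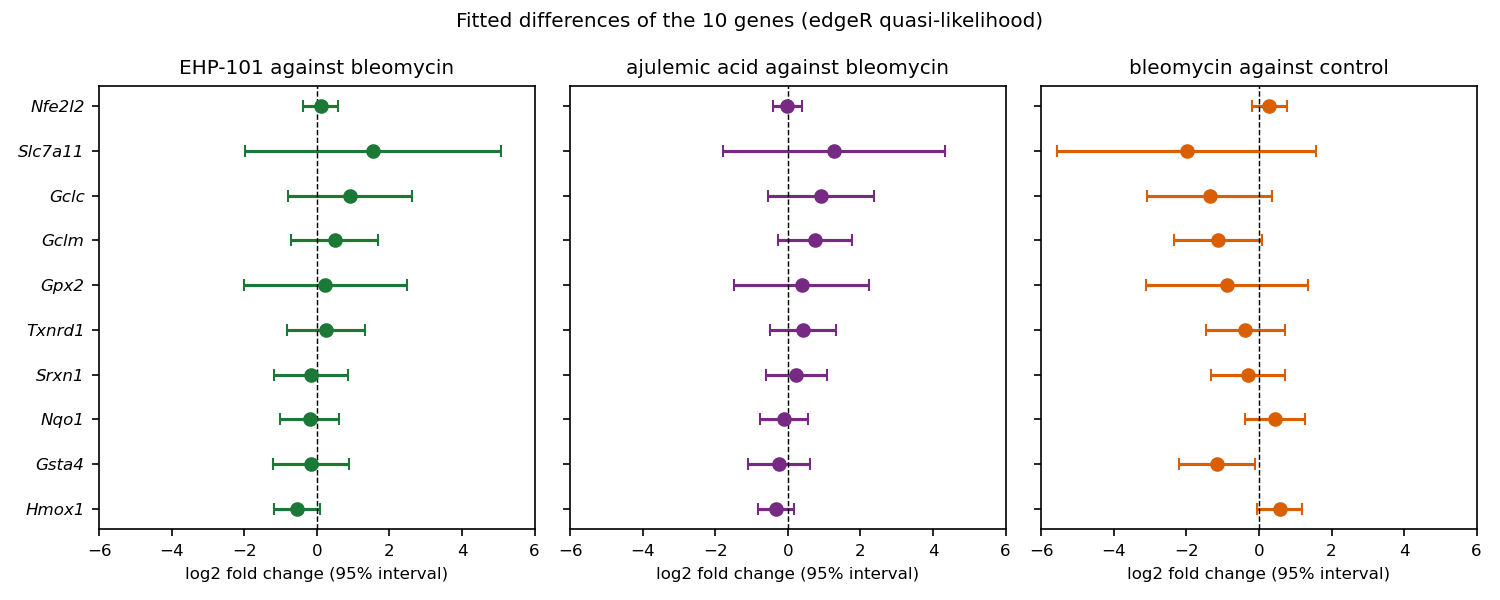
log2 fold changes of the 10 genes in EHP-101 against bleomycin, ajulemic acid against bleomycin and bleomycin against control, shown as points with 95% confidence intervals from the edgeR fit. The intervals of Slc7a11 are the widest, from -5.56 to 1.57 in bleomycin against control, and Gsta4 lies below 0 with its whole interval in that comparison.

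Over the 10 genes, 3 were higher and 7 lower in bleomycin against control, with a median log2 fold change of -0.63; 49.5% of all tested genes were higher and their median was -0.01. In EHP-101 against bleomycin 6 were higher and 4 lower with a median of 0.17, where 50.0% of all genes were higher and their median was 0.00. In ajulemic acid against bleomycin 6 were higher and 4 lower with a median of 0.30, where 52.8% of all genes were higher and their median was 0.02. The bleomycin library is shared by these 3 comparisons, with opposite sign in the first. The median in ajulemic acid against bleomycin was 0.51 without replicate 2 and 0.08 without replicate 3. The 2 treatment groups against control gave medians of -0.45 with EHP-101 and -0.22 with ajulemic acid, where it was -0.07 without replicate 2 and -0.45 without replicate 3.

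The 2 compounds were set against each other directly, although their doses and times are not given, and the comparison covered 10 genes in 1 pair of groups. EHP-101 lay within the range of the 3 ajulemic acid libraries for 8 of the 10 members, as it did for 61.9% of all tested genes. The exceptions were Hmox1, where EHP-101 was at 45.0 CPM and the lowest ajulemic acid library at 49.0 CPM, and Nfe2l2, where EHP-101 was at 73.7 CPM and the highest ajulemic acid library at 69.1 CPM. The log2 fold change of EHP-101 against ajulemic acid was -0.23 for Hmox1 (95% CI -0.74 to 0.29) and 0.12 for Nfe2l2 (-0.27 to 0.52). It was largest in size for Srxn1 at -0.40 (-1.25 to 0.45), and for Slc7a11 the interval ran from -2.45 to 3.004 around 0.28. The edgeR adjusted p was 0.9999 for each of the 10 genes. These intervals leave room for differences of either sign, and similar action of the compounds is not shown.

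The wider pathway was described through 9 lists holding 129 genes, of which 126 were tested; 0 passed at an adjusted p under 0.05 in bleomycin against control, EHP-101 against bleomycin or ajulemic acid against bleomycin (edgeR). At an unadjusted p under 0.05 (edgeR), 10 were higher and 7 lower in the first of these, 3 higher and 4 lower in the second, and 3 higher and 8 lower in the last. Of all 17377 tested genes, 817 were higher and 365 lower in the first, 100 and 229 in the second, and 108 and 558 in the last. In bleomycin against control 55 of the 126 were higher (43.7%, against 49.5% of all tested genes) and 71 lower, with a median log2 fold change of -0.13. The lists of NADPH supply (2 of 11 higher, median -0.53) and of glutathione synthesis and recycling (2 of 13 higher, median -0.47) lay lowest. Detoxification and export (12 of 22 higher, median 0.19) lay highest, and the 12 NRF2 regulators had a median of 0.10. The glutathione transferases had a median of -0.23 with 7 of 17 higher, and the heme and iron genes one of -0.24 with 3 of 10 higher.

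In EHP-101 against bleomycin 50 of the 126 were higher (39.7%, against 50.0% of all tested genes) and 76 lower, with a median of -0.11. In ajulemic acid against bleomycin 54 were higher (42.9%, against 52.8% of all tested genes) and 72 lower, with a median of -0.03. Detoxification and export had the lowest medians in both, at -0.28 (5 of 22 higher) with EHP-101 and -0.34 (6 of 22 higher) with ajulemic acid, where hepatocyte transcripts were lower as well; their part in this list was not tested. NADPH supply had a median of 0.10 with EHP-101 and 0.27 with ajulemic acid, with 7 of 11 genes higher in each. The targets of ATF4, the factor that also drives Slc7a11 under amino acid shortage, had medians of 0.13 with EHP-101, 0.09 with ajulemic acid and 0.02 in bleomycin against control.

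The pathway genes of smallest unadjusted p in bleomycin against control were named in each direction. Hp, the hemoglobin-binding protein haptoglobin, was at 638 CPM with EHP-101, 369 ± 60.6 CPM with ajulemic acid (SD, n = 3), 295 CPM with bleomycin alone and 90.5 CPM in control. The stress-induced factor Atf3 was at 40.4 CPM with EHP-101, 24.9 ± 4.44 CPM with ajulemic acid (SD, n = 3), 13.7 CPM with bleomycin alone and 6.04 CPM in control. For Hp and Atf3 control was the lowest library and EHP-101 the highest, and the log2 fold changes of bleomycin against control were 1.70 (SE 0.30; edgeR adjusted p = 0.434) and 1.18 (SE 0.33; adjusted p = 0.652). Hp is also a major liver product, and hepatocyte transcripts were highest in control, where Hp was lowest; their part in the Hp values was not tested. Glrx, a glutaredoxin that removes glutathione from proteins, was at 19.04 CPM with EHP-101, 28.5 ± 5.40 CPM with ajulemic acid (SD, n = 3), 47.0 CPM with bleomycin alone and 21.8 CPM in control. Bleomycin alone was thus the highest library for Glrx, above all 5 others.

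Among the lower genes, Tkt, the transketolase of the pentose phosphate pathway, was at 115 CPM with EHP-101, 140 ± 15.5 CPM with ajulemic acid (SD, n = 3), 123 CPM with bleomycin alone and 517 CPM in control. Its log2 fold change of bleomycin against control was -2.07 (SE 0.24; edgeR adjusted p = 0.434). Idh1, which makes NADPH in the cytosol, was at 94.3 CPM with EHP-101, 100.5 ± 9.84 CPM with ajulemic acid (SD, n = 3), 83.1 CPM with bleomycin alone and 163 CPM in control. Gpx3, the plasma glutathione peroxidase, was at 40.9 CPM with EHP-101, 35.5 ± 9.55 CPM with ajulemic acid (SD, n = 3), 52.7 CPM with bleomycin alone and 133 CPM in control. For Tkt, Idh1 and Gpx3 control stood above the other groups, as it did for the adipocyte and the other marker lists named with Gsta4; their part in these values was not tested.

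In EHP-101 against bleomycin the named genes were Atf3 (log2 fold change 1.56, SE 0.33), Hp (1.11, SE 0.30) and Bach2, a relative of Bach1 (0.96, SE 0.32), among the higher. Mgst2, a microsomal glutathione transferase that can make leukotriene C4 (-1.89, SE 0.34), Glrx (-1.30, SE 0.32) and Gsto1, the omega-class transferase (-0.86, SE 0.26), were named among the lower, and all 6 had an edgeR adjusted p of 0.9998. In ajulemic acid against bleomycin, Atf3 (0.87, SE 0.27), the transferase gene Gstp1 (0.84, SE 0.28) and the transferrin receptor gene Tfrc (0.42, SE 0.15) were named among the higher. Mgst2 (-1.26, SE 0.25) and Sesn1, a sestrin induced by p53 (-0.59, SE 0.17), were named among the lower with Hpx. Mgst2 was at 2.38 CPM with EHP-101, 3.70 ± 0.023 CPM with ajulemic acid (SD, n = 3), 8.86 CPM with bleomycin alone and 4.01 CPM in control, so bleomycin alone was the highest library. Hpx, the heme-binding protein hemopexin made by the liver, was at 10.5 CPM with EHP-101, 1.41 ± 0.258 CPM with ajulemic acid (SD, n = 3), 16.04 CPM with bleomycin alone and 21.2 CPM in control. Its log2 fold change of ajulemic acid against bleomycin was -3.50 (SE 0.27; edgeR adjusted p = 0.109), and all 20 hepatocyte markers were lower there with a median of -5.77; 4 and 5 of the 20 were at 0 in ajulemic acid replicates 1 and 3. The part of hepatocyte RNA in the Hpx value was not tested.

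**Figure D4:**
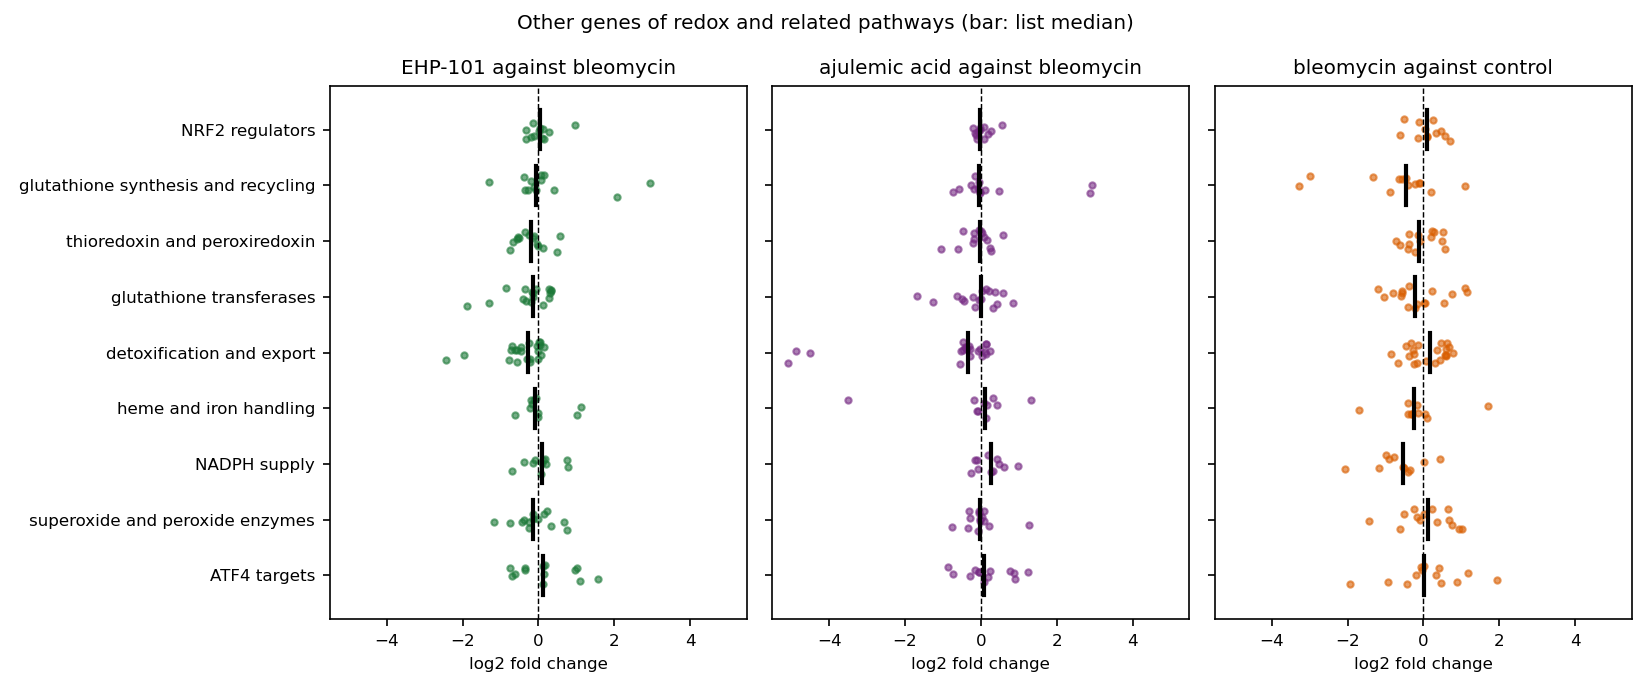
log2 fold changes of the genes of the 9 pathway lists in EHP-101 against bleomycin, ajulemic acid against bleomycin and bleomycin against control, each point a gene and each bar a list's median. In bleomycin against control the medians run from -0.53 for NADPH supply to 0.19 for detoxification and export.

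The genes most like each member over the 6 libraries were found as those with the smallest root mean square difference in centred log2 CPM, among 10743 genes. Nfe2l2 was nearest to Mast2 (0.019) and Hnrnpul2 (0.021), Nqo1 to Abhd17b (0.027) and Ddx46 (0.045), and Txnrd1 to Rmnd5b (0.028) and Cars (0.036). Hmox1 was nearest to Baiap2 (0.044) and Rab27a (0.049), Srxn1 to Slc25a13 (0.043) and Anpep (0.061), Gclm to Tpgs2 (0.044) and Gprin3 (0.068), and Gclc to Ttc7b (0.061) and Cdk1 (0.066). The members with the widest range had looser neighbours: Slc7a11 had Nhs (0.141) and Pm20d1 (0.207), Gpx2 had Cxcl14 (0.168) and Rab15 (0.200), and Gsta4 had Alas2 (0.087), the erythroid heme synthesis enzyme, and Clybl (0.120). Among the members themselves the closest pairs were Nqo1 with Nfe2l2 (0.136), Srxn1 with Txnrd1 (0.138) and Gclm with Gclc (0.199). This measure is small for any genes that vary little, and the SD of the centred values was 0.133 for Nfe2l2 and 0.172 for Nqo1. With EHP-101 Nfe2l2 was at 0.14 and Nqo1 at -0.03, and in ajulemic acid replicate 2 they were at -0.03 and 0.11. A shared profile of Nqo1 and Nfe2l2 is therefore not shown. All values share the same 6 libraries and describe them only.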

How the data were processed

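RNA-seq counts of skin were analysed for 6 libraries. Per the labels' protocols, 300 ng of total RNA per sample went into stranded, ribosomal RNA-depleted libraries read as single-end 50 bp reads. The authors deposited raw counts per gene with NCBI gene numbers, made with featureCounts per the series description. The submitters' processing notes name the mm10 genome, DESeq2 1.20.0, featureCounts 1.6.1, Trimmomatic 0.36 and HISAT2 2.1.0. Whether strand was used, and how reads that match several places were handled, is not given in the sources used here. Gsta4, Gpx2 and other members of gene families with close copies, and overlapping or antisense genes, therefore carry that uncertainty. The 2 deposited tables held the same counts for these libraries (0 differing values). A further 6 columns belong to another series, have no sample here and were not used. Of the libraries used, control, bleomycin alone and EHP-101 had 1 each, all labelled replicate 3. RefSeq symbols were found for 25275 of 27179 genes. Mitochondrial ribosomal RNA took 17.3 to 26.5% of the counts. The ajulemic acid libraries differed pairwise far beyond sampling noise (chi-square per degree of freedom 37.3 to 132), so none was treated as a duplicate.

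Groups came from the sample labels. Testing used edgeR 4.0.16 in R 4.3.3: filterByExpr (minimum count 10, 17377 genes), TMM normalization and 1 robust quasi-likelihood fit of all 6 libraries (two-sided, Benjamini-Hochberg, threshold 0.05, common biological coefficient of variation 0.267, 2 residual degrees of freedom). CPM used TMM-scaled library sizes, FPKM is CPM per kilobase of exon, and centred values are log2 CPM (prior count 3) minus each gene's mean. Intervals on single libraries are exact 95% Poisson intervals, which cover counting error only.

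The 10 genes and all lists were chosen with earlier results of these data known. Named genes were all 10 members, Keap1, Bach1, the 3 higher and 3 lower pathway genes with the smallest unadjusted p (mean log2 CPM 2 or more) in 3 comparisons, and for each member the 2 most similar genes (mean log2 CPM 3 or more). The 9 alternatives were size factors by the RLE method, DESeq2 1.42.0, limma-trend (limma 3.58.1), no filter, no robust option, library sizes without hepatocyte, hair and mitochondrial ribosomal RNA genes, and leaving out each ajulemic acid library.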

Additional observations from a re-analysis of the deposited data

How the results depend on the processing

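No member passed the threshold under any of the 9 alternatives, and 524 of 540 single-member fold changes kept their sign. The medians over the members moved by less than 0.37 (log2), the SD over the ajulemic acid libraries. That bound exceeds the main medians of 0.17 in EHP-101 against bleomycin and 0.30 in ajulemic acid against bleomycin. It does not show that these kept their size. Many of the 540 could hardly move: dropping the robust option left the member fold changes of bleomycin against control at their main values. Comparisons between single libraries depend on the ajulemic acid libraries almost only through scaling. Gclc in bleomycin against control was -1.36, and -1.36, -1.43 and -1.36 without ajulemic acid replicates 1, 2 and 3. Signs kept there say little about stability. The single control, bleomycin and EHP-101 libraries could not be left out. Over all genes the count past the threshold changed widely. With DESeq2 it was 165 in bleomycin against control, 10 in EHP-101 against bleomycin, 103 in ajulemic acid against bleomycin, 64 in EHP-101 against ajulemic acid, 120 in EHP-101 against control and 276 in ajulemic acid against control. Without the filter it was 41 in ajulemic acid against bleomycin, 16 in EHP-101 against ajulemic acid and 153 in ajulemic acid against control, and with limma-trend 0 in the last. Leaving out 1 ajulemic acid library, which leaves 1 residual degree of freedom, gave 0 to 177 genes in bleomycin against control, 0 to 92 in ajulemic acid against bleomycin, 0 to 67 in EHP-101 against ajulemic acid, 0 to 91 in EHP-101 against control and 0 to 367 in ajulemic acid against control, the highest each time without replicate 3; the cause was not tested.

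The sign changed in 16. In EHP-101 against ajulemic acid, Gpx2 was 0.0201 with limma-trend and Gclc -0.0093 without the filter, and leaving out 1 library gave -0.25 to 0.41 for Gclc, -0.42 to 0.0025 for Gclm, -0.34 to 0.0319 for Txnrd1, -0.14 to 1.16 for Slc7a11, -0.0098 to 0.31 for Gsta4 and -0.49 to 0.11 for Gpx2. In ajulemic acid against control Txnrd1 was -0.0057 with limma-trend, and leaving out 1 library gave -0.16 to 0.18 for Txnrd1 and -0.27 to 0.0493 for Srxn1. It gave -0.0343 to 0.0179 for Nfe2l2 in ajulemic acid against bleomycin and -0.0145 to 0.0181 for Hmox1 in EHP-101 against control. No paired analysis of the libraries used was possible because their groups share fewer than 2 replicate numbers. Depth limits Gpx2 most, at 28 to 100 counts.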
